A study of Homo sapiens with 6 samples.

Results

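Glucose and lactate transport, the first phosphorylation of glucose and the TXNIP arm of glucose sensing were followed here through 10 genes: the glucose transporter genes SLC2A1 and SLC2A3, the lactate transporter genes SLC16A1 and SLC16A3, the hexokinase genes HK1 and HKDC1, the arrestin-domain genes TXNIP and ARRDC4, and the bifunctional enzyme genes PFKFB3 and PFKFB4. The genes were taken by name, with earlier results of these data known. All 10, each protein-coding, were found among the 60651 gene rows. RNA was sequenced from MDA-MB-231, an established human cell line of triple-negative breast cancer, labelled as wild type in every group. The cells were grown in DMEM with fetal bovine serum and were given DMSO, the solvent control, or the ethyl acetate extract of Antenoron filiforme (AF-EAE) at 75 or 150 µg/ml, each for 24 h. The 3 groups held 2 libraries each, with 15621103 to 17113722 counts in genes per library. Cell number, viability and the glucose or lactate left in the medium were not used here, nor were the constituents of the extract (not given in the sources used here).

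Glucose enters most cells through GLUT carriers, of which GLUT1 (SLC2A1) is the common basal form and GLUT3 (SLC2A3) has a high affinity. Hexokinases trap it as glucose phosphate, and the PFKFB enzymes set the level of a fructose bisphosphate that activates phosphofructokinase, the main control point of glycolysis. Lactate leaves or enters the cell with a proton through monocarboxylate transporters, of which MCT1 (SLC16A1) has a high affinity and MCT4 (SLC16A3) is known for export from glycolytic cells, and both need the chaperone basigin at the membrane. TXNIP, an arrestin-domain protein that binds thioredoxin and promotes the uptake of GLUT1 from the cell surface, is induced with its relative ARRDC4 when the sensor MondoA detects glucose phosphate.

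MondoA and its relative ChREBP bind a carbohydrate response element, a pair of E-box-like sites. For this reason the sequences upstream of TXNIP and ARRDC4 are shown, together with that of HKDC1, the member with the clearest rise. The letters are the 250 bases before the annotated start in RefSeq (GRCh38.p14), written 5′ to 3′ along the gene's own strand. The capitals mark the motifs found on either strand: the E-box CACGTG, the shorter ACGTG known as the core of the hypoxia response element, and the form in which CACGNG is repeated after 5 bases.
TXNIP, chr1:145996580-145996829, minus strand: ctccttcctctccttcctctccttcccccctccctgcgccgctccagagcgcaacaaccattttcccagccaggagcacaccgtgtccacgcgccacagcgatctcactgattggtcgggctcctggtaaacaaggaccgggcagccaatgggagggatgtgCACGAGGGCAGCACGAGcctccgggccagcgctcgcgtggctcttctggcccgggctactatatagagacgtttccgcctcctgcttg
ARRDC4, chr15:97960453-97960702, plus strand: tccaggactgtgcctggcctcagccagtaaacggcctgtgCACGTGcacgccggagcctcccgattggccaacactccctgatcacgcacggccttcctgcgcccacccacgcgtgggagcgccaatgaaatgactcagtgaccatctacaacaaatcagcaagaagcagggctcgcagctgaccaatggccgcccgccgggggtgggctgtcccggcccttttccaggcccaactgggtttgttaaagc
HKDC1, chr10:69220082-69220331, plus strand: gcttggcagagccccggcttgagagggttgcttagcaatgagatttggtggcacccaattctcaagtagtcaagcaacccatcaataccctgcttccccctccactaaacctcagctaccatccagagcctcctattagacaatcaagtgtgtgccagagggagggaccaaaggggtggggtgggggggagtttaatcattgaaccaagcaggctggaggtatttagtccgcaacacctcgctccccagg

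The TXNIP stretch holds the repeated CACGNG form from base -88 to base -72, counted from the first base of the gene, with the 5 bases between the copies also in capitals. This form stood in 20 of 35116 RefSeq windows of 250 bases before and 50 bases after a start, a share of 0.057%. ARRDC4 has CACGTG at -210 to -205, a motif found in 7.26% of all windows, which contains ACGTG on both strands, so these matches overlap. HKDC1 held none of these letters, nor TGATGNAA, which was also searched on both strands and stood in 3.62% of all windows. Windows were given for 8 of the 10 genes, 20 windows in all. The second PFKFB3 window had CACGTG at -108 to -103. The second SLC16A3 window had ACGTG at -68 to -64 and at -55 to -51, the second TXNIP window had it at -162 to -158, and the motif stood in 21.4% of all windows. The first 2 HK1 windows, whose starts lie close together, shared a match to TGATGNAA on the minus strand, and the SLC2A1 and PFKFB4 windows held no motif searched. A match describes the letters and says nothing about which factor was bound in these cells.

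Levels are CPM, the counts of a gene relative to the total of its library, after TMM normalization, and differences are log2 fold changes tested with edgeR's quasi-likelihood test over all 15589 genes that passed the filter on low counts, with Benjamini-Hochberg adjustment and a threshold of 0.05. All 10 genes passed the filter, and the lowest count of any of them was 5, for SLC16A1 in a DMSO library. At 75 µg/ml against DMSO 6 of the 10 rose and 2 fell. Among all genes tested, 19.2% rose and 19.4% fell in that comparison. At 150 µg/ml against DMSO 5 rose and 2 fell, beside 25.8% higher and 25.7% lower over all genes. At 150 µg/ml against 75 µg/ml 4 rose and 3 fell, beside 9.51% higher and 12.5% lower over all genes. The median log2 fold change of the 10 genes was 0.23, 0.22 and 0.18 in the 3 comparisons, against 0.01, 0.03 and 0.00 over all genes tested. Because the 10 genes were chosen with earlier results of these data known, their counts and medians beside all genes are description only. The 3 comparisons share libraries, the DMSO libraries serving both doses, so that their values for a gene are not independent of each other. The labels call the libraries of a group biological replicates, and nothing says whether they came from separate cultures. The p-values thus measure the spread between these libraries.

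The split between higher and lower calls depends on the scaling. With TMM, 2989 genes were called higher and 3026 lower at 75 µg/ml against DMSO, 4022 and 4000 at 150 µg/ml against DMSO, and 1482 and 1951 at 150 µg/ml against 75 µg/ml. With total counts, the higher and lower calls were 4501 and 1816, 6031 and 2542, and 2206 and 1345, and the median of all genes moved to 0.14, 0.22 and 0.06. The 7 markers of the line (VIM, CD44, EGFR, KRT18, KRT8, AXL and CAV1) all had counts, and all 7 fell at both doses against DMSO (6 at 75 µg/ml under total counts). Their summed level was 4573 to 4684 CPM in DMSO, 3219 to 3284 CPM at 75 µg/ml and 2492 to 2523 CPM at 150 µg/ml. The 8 luminal breast markers summed to 132 to 135 CPM, 147 to 150.2 CPM and 129 to 136 CPM. The highest were ERBB2, at 85.2, 98.1 and 84.3 CPM, and KRT19, at 29.7, 33.1 and 35.9 CPM. CDH1, FOXA1 and PGR were at 0 in DMSO and PGR at 0 at 75 µg/ml. The 6 leukocyte markers summed to at most 0.428 CPM, with PTPRC and CD3E among those at 0 in every group. The 7 fibroblast and endothelial markers summed to 9.52 to 17.0 CPM. COL1A1 was the highest of these, at 7.79 CPM in DMSO, 10.2 CPM at 75 µg/ml and 9.99 CPM at 150 µg/ml, and DCN was at 0 in every group. The part of the fall of the line's own markers in the results on transport and hexokinase genes was not tested.

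**Figure D1:**
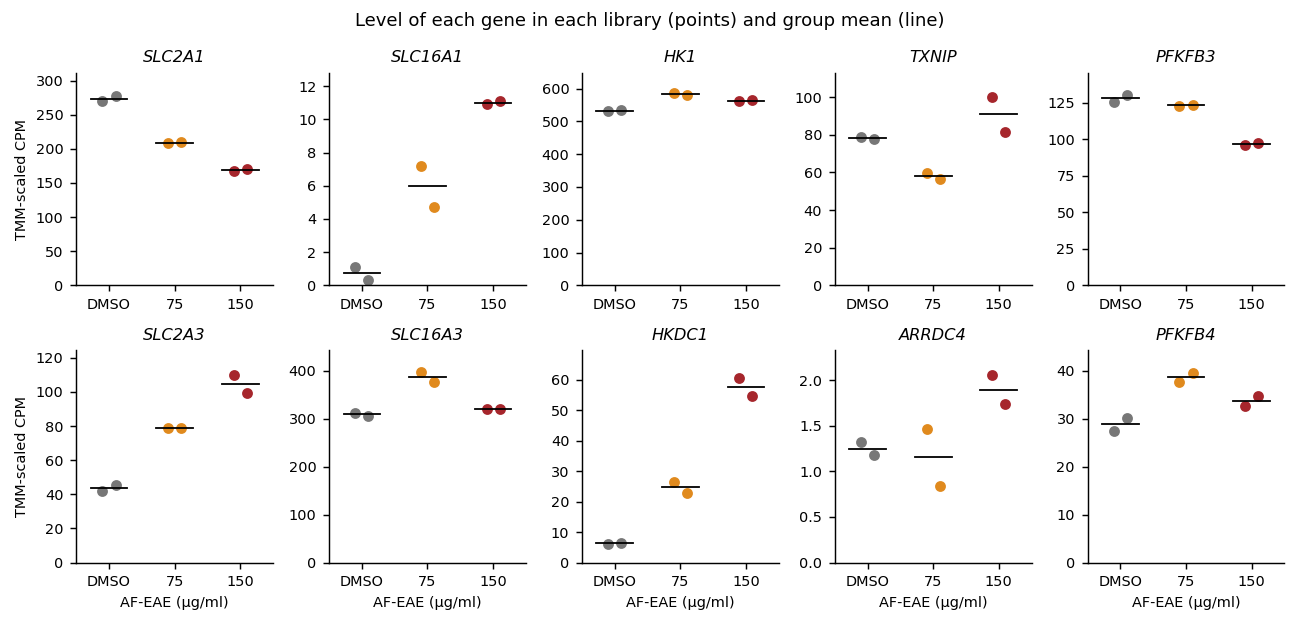
Level of each of the 10 genes in TMM-scaled CPM (vertical axes, linear, from 0) in each library of DMSO, 75 and 150 µg/ml AF-EAE (horizontal axes), with a point per library and a line at the group mean. HKDC1 and SLC2A3 stood higher at each dose step and SLC2A1 lower, while the TXNIP libraries stood at 56.6 and 59.8 CPM at 75 µg/ml and at 81.5 and 100.3 CPM at 150 µg/ml, below and above those of DMSO.

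The GLUT genes moved in opposite directions. SLC2A1 (ENSG00000117394.24, minus strand of chromosome 1, 42925375 to 42959176, as the other coordinates from GENCODE 29 on GRCh38) had 269.7 and 277 CPM in the DMSO libraries, 209 and 209.6 CPM at 75 µg/ml, and 168 and 170.25 CPM at 150 µg/ml. The 3 pairs of libraries did not overlap, and each dose step was lower than the one before. SLC2A1 fell by 0.39 on the log2 scale at 75 µg/ml against DMSO (SE 0.0471, adjusted p = 5.09e-06, edgeR with Benjamini-Hochberg adjustment). The fall was 0.69 at 150 µg/ml against DMSO (log2 fold change -0.69, SE 0.0477, adjusted p = 1.71e-09, edgeR) and the log2 fold change between the doses was -0.31 (SE 0.048, adjusted p = 0.000187, edgeR). In bulk RNA, fewer cells of a kind and less RNA per cell cannot be told apart. SLC2A1 shares 2.71% of its exonic length with the antisense gene SLC2A1-AS1, which had 2 to 10 counts per library.

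SLC2A3 (ENSG00000059804.16, minus strand of chromosome 12, 7919230 to 7936275) had 42.2 and 45.6 CPM in the DMSO libraries, 78.6 and 79.1 CPM at 75 µg/ml, and 109.6 and 99.3 CPM at 150 µg/ml. Every library at 150 µg/ml was above every library at 75 µg/ml, and those were above DMSO. SLC2A3 rose 1.80-fold at 75 µg/ml (log2 fold change 0.85, SE 0.0726, adjusted p = 9.03e-08, edgeR) and 2.38-fold at 150 µg/ml against DMSO (1.25, SE 0.0713, adjusted p = 1.58e-10, edgeR). Between the doses its log2 fold change was 0.41 (SE 0.0671, adjusted p = 0.000329, edgeR). SLC2A14 is a near-identical copy of SLC2A3, and the treatment of reads matching both (not given in the sources used here) leaves the level of SLC2A3 uncertain to that extent. SLC2A14 itself had 2 and 2 counts in DMSO, 6 and 3 counts at 75 µg/ml, and 14 and 11 counts at 150 µg/ml.

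Set on a common scale, CPM per kilobase of exonic length, SLC2A1 stood at 57.9 ± 1.09 in DMSO, 44.3 ± 0.110 at 75 µg/ml and 35.8 ± 0.405 at 150 µg/ml (SD, n = 2 each). The exonic length is that of all annotated exons of a gene merged, whichever transcripts the cells use. Levels and shares compared between genes depend on it. SLC2A3 stood at 7.13 ± 0.397, 12.8 ± 0.0587 and 17.0 ± 1.19 on that scale. The share of SLC2A3 in the summed level of both was 11.0 ± 0.361% in DMSO, 22.4 ± 0.0354% at 75 µg/ml and 32.2 ± 1.77% at 150 µg/ml (SD, n = 2 each). The sum itself was 63.9 and 66.0 CPM per kilobase in DMSO, 57.0 and 57.2 with 75 µg/ml, and 53.3 and 52.2 with 150 µg/ml. SLC2A1 thus remained the more abundant of the 2 transcripts per length in all 6 libraries.

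**Figure D2:**
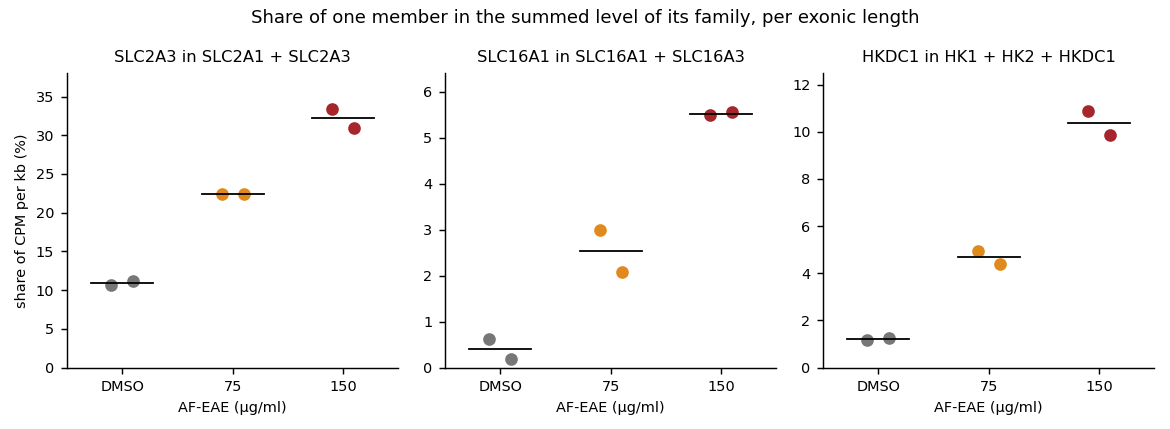
Share (%) of SLC2A3, SLC16A1 and HKDC1 in the summed CPM per kilobase of the genes named above each panel (vertical axes, from 0) in DMSO, 75 and 150 µg/ml AF-EAE (horizontal axes), with a point per library and a line at the group mean. The shares averaged 32.2% for SLC2A3, 5.52% for SLC16A1 and 10.4% for HKDC1 at 150 µg/ml, and in each panel the 3 groups do not overlap.

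Among the lactate transporters the larger change was in SLC16A1, which was barely detected in DMSO. SLC16A1 (ENSG00000155380.13, minus strand of chromosome 1, 112911847 to 112957013) had 18 and 5 counts in DMSO, 118 and 79 with 75 µg/ml, and 181 and 191 with 150 µg/ml. These are 1.13 and 0.327 CPM, 7.21 and 4.75 CPM, and 10.9 and 11.1 CPM. The groups did not overlap, but the DMSO libraries differed from each other by 18 against 5 counts, and so few counts give a wide interval. SLC16A1 rose 8.03-fold at 75 µg/ml against DMSO (95% interval 2.26 to 3.75 on the log2 scale, adjusted p = 3.25e-06, edgeR). The rise at 150 µg/ml against DMSO was 14.8-fold (log2 fold change 3.89, SE 0.331, 95% interval 3.19 to 4.58, adjusted p = 2.76e-08, edgeR). Both sizes depended on single DMSO libraries. Without DMSO replicate 1 the log2 fold changes were 4.16 at 75 µg/ml and 5.04 at 150 µg/ml, both above the intervals given, and without DMSO replicate 2 they were 2.39 and 3.27, while the call was kept each time. It ranked 61st and 49th from the top among the 15589 genes in these comparisons. The difference between the doses, 0.88 (SE 0.237, adjusted p = 0.0129, edgeR), lost its call when single libraries were left out, with an adjusted p of 0.113 without replicate 2 at 75 µg/ml (log2 fold change 0.61), 0.0946 without replicate 1 at 150 µg/ml (0.90) and 0.0789 without replicate 2 at 150 µg/ml (0.88). Without replicate 1 at 75 µg/ml it was 1.22 (adjusted p = 0.0038, edgeR). The antisense gene SLC16A1-AS1, which shares 3.29% of the exonic length of SLC16A1, had 0 or 1 count in each library.

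SLC16A3 (ENSG00000141526.18, plus strand of chromosome 17, 82228397 to 82261129) was abundant in all groups, with 312 and 306 CPM in the DMSO libraries, 397 and 377 CPM at 75 µg/ml, and 319 and 319.6 CPM at 150 µg/ml. The 75 µg/ml libraries were the highest, and those at 150 µg/ml lay just above DMSO. The log2 fold change was 0.32 at 75 µg/ml against DMSO (SE 0.0462, adjusted p = 2.63e-05, edgeR) and -0.28 at 150 µg/ml against 75 µg/ml (SE 0.046, adjusted p = 0.000337, edgeR). Against DMSO, 150 µg/ml gave 0.05 with a 95% interval of -0.05 to 0.15 (adjusted p = 0.42, edgeR), and 0.23 with an adjusted p of 0.00033 under total-count scaling. SLC16A3 shares 5.36% of its exonic length with CSNK1D on the opposite strand, which had 118 to 142 CPM and a log2 fold change of -0.04 at 75 µg/ml against DMSO (adjusted p = 0.64, edgeR). CSNK1D was looked at because of the overlap and falls outside the rule for named genes.

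Per kilobase, SLC16A1 stood at 0.138 ± 0.107 in DMSO, 1.13 ± 0.328 at 75 µg/ml and 2.07 ± 0.0196 at 150 µg/ml, and SLC16A3 at 34.4 ± 0.486, 43.0 ± 1.59 and 35.5 ± 0.0424 (CPM per kilobase, SD, n = 2 each). The share of SLC16A1 in the sum of the 2 was 0.396 ± 0.305% in DMSO, 2.54 ± 0.634% at 75 µg/ml and 5.52 ± 0.0424% at 150 µg/ml. SLC16A3 therefore held most of the summed transcript level at every dose. Among the transporters' chaperones, BSG, which encodes basigin, was at 660 CPM at 75 µg/ml and 613 CPM at 150 µg/ml, against 651 CPM in DMSO, and passed the threshold in neither comparison with DMSO (adjusted p = 0.777 and 0.124, edgeR). EMB, which encodes embigin, a chaperone of the same family, fell to 34.9 CPM at 75 µg/ml and 35.0 CPM at 150 µg/ml, against 47.5 CPM in DMSO (adjusted p = 0.000493 and 0.000338, edgeR). BSG and EMB are in the list of other monocarboxylate transport and were named here for their role, after their values were seen.

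HKDC1, a hexokinase-like gene whose product phosphorylates glucose at low rates, was the member with the smallest adjusted p at each dose against DMSO and between the doses. HKDC1 (ENSG00000156510.13, plus strand of chromosome 10, 69220303 to 69267559) had 6.11 and 6.42 CPM in the DMSO libraries, 26.6 and 23.0 CPM at 75 µg/ml, and 60.6 and 54.8 CPM at 150 µg/ml. The groups were far apart, and the libraries within a group close together. HKDC1 rose 3.96-fold at 75 µg/ml (log2 fold change 1.98, SE 0.126, adjusted p = 2.31e-09, edgeR) and 9.20-fold at 150 µg/ml against DMSO (3.20, SE 0.118, adjusted p = 5.86e-13, edgeR). Between the doses the rise was 2.33-fold (1.22, SE 0.0964, adjusted p = 1.54e-07, edgeR). By fold change it ranked 195th, 89th and 177th from the top among the 15589 genes. The antisense gene AL596223.2, which shares 3.36% of the exonic length of HKDC1, had 0 or 1 count in each library.

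HK1, the widely expressed hexokinase, lies next to HKDC1 on the same strand (ENSG00000156515.24, chromosome 10, 69269984 to 69401884), and HKDC1 ends 2424 bases before HK1 starts. HK1 had 531 and 534 CPM in the DMSO libraries, 585 and 581 CPM at 75 µg/ml, and 562 and 565 CPM at 150 µg/ml. The 3 pairs of libraries did not overlap, yet lay within a narrow range. HK1 rose by a log2 fold change of 0.13 at 75 µg/ml (SE 0.042, adjusted p = 0.0204, edgeR). Leaving out either DMSO library or either 75 µg/ml library raised that adjusted p to 0.0776 and 0.053 or to 0.147 and 0.0898. The log2 fold change at 150 µg/ml was 0.08 (95% interval -0.01 to 0.17, adjusted p = 0.117, edgeR), and 0.27 with an adjusted p of 3.08e-05 under total counts.

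HK2, the inducible hexokinase of many tumours, is not among the 10 genes but is needed for the share that HKDC1 takes. It had 225 and 211 CPM in the DMSO libraries, 162 and 156 CPM at 75 µg/ml, and 167 and 169 CPM at 150 µg/ml. HK2 fell at both doses against DMSO, with log2 fold changes of -0.46 (SE 0.0521, adjusted p = 2.25e-06, edgeR) and -0.38 (SE 0.0518, adjusted p = 9.69e-06, edgeR). Per kilobase, HK1 stood at 84.6 ± 0.367 in DMSO, 92.6 ± 0.484 at 75 µg/ml and 89.5 ± 0.361 at 150 µg/ml, and HKDC1 at 1.47 ± 0.0499, 5.82 ± 0.595 and 13.6 ± 0.967 (CPM per kilobase, SD, n = 2 each). HKDC1 thus took 1.21 ± 0.0537% of the summed level of HK1, HK2 and HKDC1 in DMSO, 4.67 ± 0.411% at 75 µg/ml and 10.4 ± 0.709% at 150 µg/ml. With only the exonic length shared with no other gene, these shares were 1.24%, 4.79% and 10.6%. The sum of the 3 genes was 123 and 121 CPM per kilobase in DMSO, 126 and 123 with 75 µg/ml, and 131 and 130.5 with 150 µg/ml.

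TXNIP (ENSG00000265972.6, minus strand of chromosome 1, 145992435 to 145996600) was lower than DMSO at 75 µg/ml and higher at 150 µg/ml. It had 79.1 and 77.6 CPM in the DMSO libraries, 59.8 and 56.6 CPM at 75 µg/ml, and 100.3 and 81.5 CPM at 150 µg/ml. The 75 µg/ml libraries lay below all others. Those at 150 µg/ml lay above DMSO, with replicate 2 close to it. TXNIP fell at 75 µg/ml by 0.43 on the log2 scale (SE 0.0843, adjusted p = 0.000602, edgeR), and the difference between the doses was 0.64 (SE 0.0831, adjusted p = 2.97e-05, edgeR).

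The rise of TXNIP at 150 µg/ml against DMSO was small and uncertain, at 0.21 on the log2 scale (SE 0.0814, adjusted p = 0.0361, edgeR). Without replicate 1 at 150 µg/ml it was 0.05 with an adjusted p of 0.62. Without DMSO replicate 1 it was 0.22 with an adjusted p of 0.0648, and without DMSO replicate 2 it was 0.20 with an adjusted p of 0.104. With DESeq2 size factors the adjusted p was 0.0536, and with DESeq2 it was 0.104. Other settings gave a larger rise, at 0.40 under total counts (adjusted p = 0.000448, edgeR) and 0.25 under the filter of 5 CPM in 2 libraries (adjusted p = 0.0146, edgeR). Without replicate 2 at 150 µg/ml the rise was 0.35. Its fall at 75 µg/ml and the difference between the doses kept their calls under every other scaling, filter and tool run and with each library left out.

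ARRDC4 (ENSG00000140450.9, plus strand of chromosome 15, 97960698 to 97973838) had 21 and 18 counts in DMSO, 24 and 14 with 75 µg/ml, and 34 and 30 with 150 µg/ml. The libraries at 75 µg/ml spanned those of DMSO, and both at 150 µg/ml were above the rest. No comparison passed the threshold for ARRDC4. The log2 fold change was -0.12 at 75 µg/ml (95% interval -0.99 to 0.76, adjusted p = 0.854, edgeR) and 0.60 at 150 µg/ml against DMSO (95% interval -0.22 to 1.42, adjusted p = 0.215, edgeR). Between the doses it was 0.72 (95% interval -0.11 to 1.54, adjusted p = 0.216, edgeR). These intervals are wide because the gene had 14 to 34 counts per library, so a change of the size seen for TXNIP was not detectable at this depth.

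**Figure D3:**
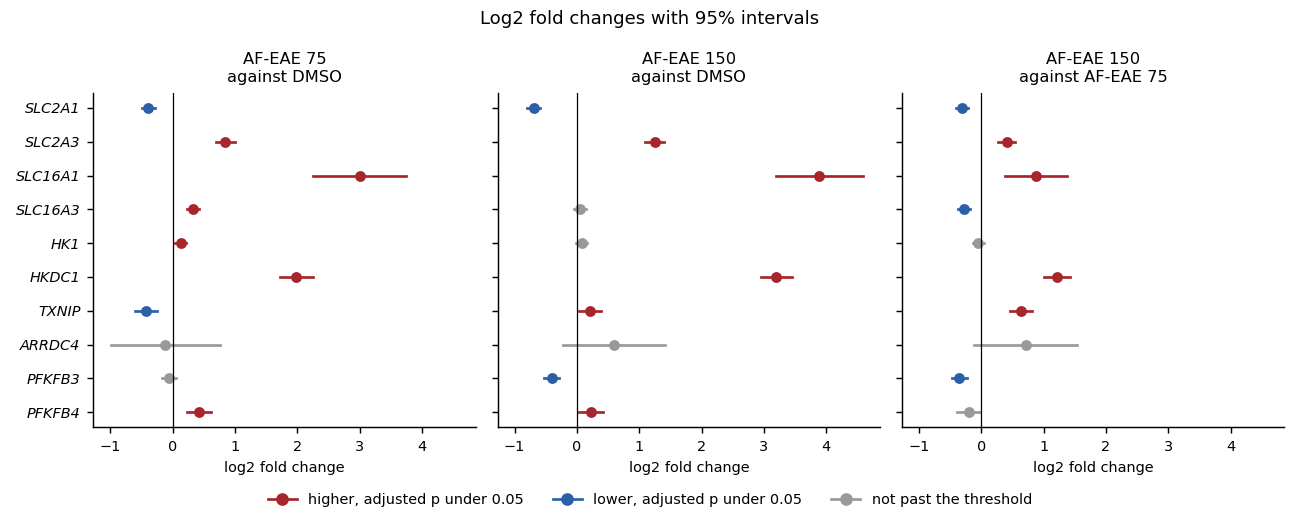
Log2 fold changes of the 10 genes (rows) with 95% intervals (lines) in the comparisons of 75 µg/ml with DMSO, 150 µg/ml with DMSO and 150 µg/ml with 75 µg/ml, on a common horizontal axis. Red marks genes called higher, blue genes called lower and grey genes not past the threshold, and SLC16A1 and HKDC1, at 3.89 and 3.20 with 150 µg/ml, lie farthest to the right in both comparisons with DMSO.

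The PFKFB genes encode enzymes that both make and break down the activator of phosphofructokinase, PFKFB3 being the form with the strongest synthetic activity. PFKFB3 (ENSG00000170525.21, plus strand of chromosome 10, 6144934 to 6254644) had 126 and 130.5 CPM in the DMSO libraries, 123 and 124 CPM at 75 µg/ml, and 96.3 and 97.3 CPM at 150 µg/ml. The 150 µg/ml libraries stood below all others, whereas those at 75 µg/ml were just under DMSO. At 75 µg/ml against DMSO the log2 fold change was -0.06 (95% interval -0.17 to 0.06, adjusted p = 0.454, edgeR). PFKFB3 fell at 150 µg/ml by 0.40 on the log2 scale against DMSO (SE 0.0546, adjusted p = 7.62e-06, edgeR) and of -0.35 against 75 µg/ml (SE 0.0545, adjusted p = 0.000197, edgeR).

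PFKFB4 (ENSG00000114268.12, minus strand of chromosome 3, 48517684 to 48562015) had 27.5 and 30.2 CPM in the DMSO libraries, 37.6 and 39.6 CPM at 75 µg/ml, and 32.6 and 34.7 CPM at 150 µg/ml. The groups did not overlap, and those at 150 µg/ml lay between the others. PFKFB4 rose at 75 µg/ml by 0.42 on the log2 scale (SE 0.0898, adjusted p = 0.00122, edgeR). Against DMSO, 150 µg/ml gave 0.22 (SE 0.0907, adjusted p = 0.0497, edgeR), a call that 10 alternatives did not keep, with adjusted p-values of 0.0506 to 0.299. These included leaving out any 1 library except DMSO replicate 2, and the highest came without DMSO replicate 1 (log2 fold change 0.15). Between the doses the log2 fold change was -0.20 (95% interval -0.38 to -0.01, adjusted p = 0.122, edgeR). PFKFB4 shares 4.73% of its exonic length with UCN2 on the same strand, and UCN2, named only for this overlap, had 67 and 76 counts in DMSO, 123 and 141 with 75 µg/ml, and 74 and 140 with 150 µg/ml. UCN2 rose at 75 µg/ml against DMSO (log2 fold change 0.80, adjusted p = 0.013, edgeR), and its part in the PFKFB4 counts was not tested.

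Ordered by CPM per kilobase, HK1, SLC2A1 and SLC16A3 led in all 3 groups, and ARRDC4 and SLC16A1 were the lowest. In DMSO, TXNIP (21.6), PFKFB3 (21.0), SLC2A3 (7.13), PFKFB4 (4.72) and HKDC1 (1.47) followed the leading 3, and no neighbours overlapped between libraries. At 75 µg/ml PFKFB3 (20.2) stood above TXNIP (16.1), and PFKFB4 (6.32) and HKDC1 (5.82) overlapped between libraries. SLC2A1 and SLC16A3 almost met there, with a lowest SLC2A1 library of 44.21 and a highest SLC16A3 library of 44.16. The merged exonic lengths, 4724 bases for SLC2A1 and 8995 for SLC16A3, enter this order, so the place of these genes relative to each other rests on them. Below the leading 3 the order at 150 µg/ml was TXNIP (25.1), SLC2A3 (17.0), PFKFB3 (15.8), HKDC1 (13.6) and PFKFB4 (5.50), and SLC2A1 (35.8) and SLC16A3 (35.5) overlapped between libraries. SLC16A1 was below ARRDC4 in DMSO and above it at both doses.

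The genes whose profile over the 6 libraries was nearest to that of TXNIP, by the root mean square difference of log2 CPM centred on each gene's own mean, were TUFT1 (0.0365), SOWAHC (0.0743) and RND3 (0.0784), among 9507 genes of 10 CPM or more on average. TUFT1, which encodes the enamel-associated protein tuftelin, had 37.7 and 36.0 CPM in the DMSO libraries, 26.9 and 27.0 CPM at 75 µg/ml, and 46.2 and 36.5 CPM at 150 µg/ml. RND3 had 58.4 and 59.8 CPM, 43.9 and 46.3 CPM, and 85.7 and 65.3 CPM. In each of these genes, as in TXNIP, replicate 1 at 150 µg/ml was above replicate 2. Likeness was computed over these same libraries, so it describes them only, and the shared order of the replicates follows from the choice.

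Nearest to HKDC1 were EREG (0.0989), CXCL8 (0.111) and CTH (0.133). EREG, which encodes the EGF receptor ligand epiregulin, had 14.3 and 16.5 CPM in the DMSO libraries, 63.8 and 64.9 CPM at 75 µg/ml, and 166 and 143 CPM at 150 µg/ml. CXCL8, which encodes the neutrophil chemokine interleukin-8, had 65.9 and 74.8 CPM, 248 and 258 CPM, and 640.4 and 521 CPM. CTH, which encodes the cysteine-forming enzyme cystathionine gamma-lyase, had 8.01 and 9.03 CPM, 35.8 and 35.9 CPM, and 71.9 and 66.1 CPM. Each of the 3 stood higher at 75 µg/ml than in DMSO and higher again at 150 µg/ml in every library. This follows from their choice by likeness to HKDC1 over these same libraries.

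**Figure D4:**
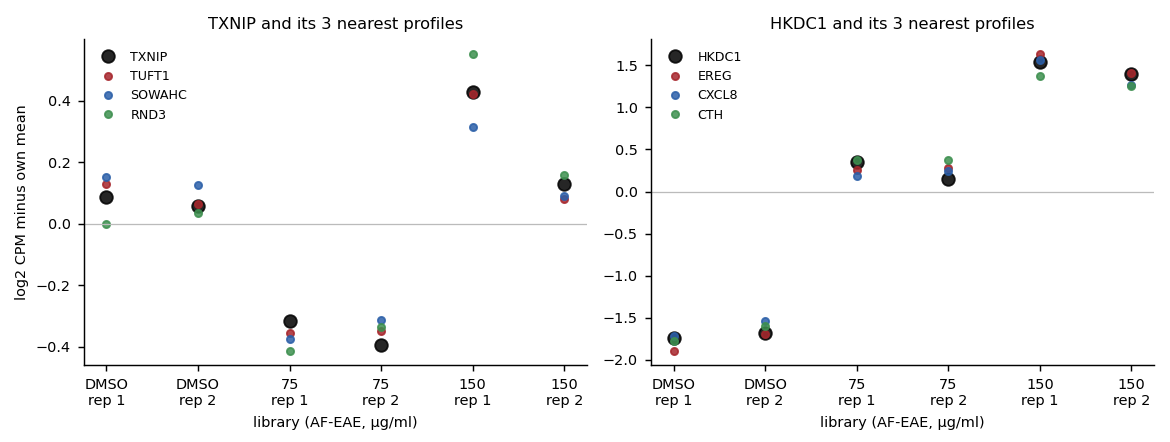
Log2 CPM minus the gene's own mean over the 6 libraries (vertical axes) in each library (horizontal axes) for TXNIP with TUFT1, SOWAHC and RND3, and for HKDC1 with EREG, CXCL8 and CTH. The TXNIP group dips at 75 µg/ml and the HKDC1 group climbs at each dose step, with points of the 4 genes lying close together in each library because closeness was the rule of choice.

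The neighbouring genes of the pathway were read from lists, each with the genes called higher and lower in the comparisons of 75 µg/ml with DMSO, 150 µg/ml with DMSO, and 150 µg/ml with 75 µg/ml. Over all genes tested, 19.2% rose and 19.4% fell, 25.8% rose and 25.7% fell, and 9.51% rose and 12.5% fell in these comparisons. The counts of each list here and in the following paragraphs stand beside these shares. Many lie near them, the lists are short, and no list was tested against them. Of 6 other glucose transporter genes tested, of 14 listed, 1 rose and 0 fell, 1 rose and 2 fell, and 0 rose and 2 fell. SLC2A6, a further GLUT gene, rose to 73.5 CPM at 75 µg/ml, against 59.4 CPM in DMSO (log2 fold change 0.31, adjusted p = 0.0033, edgeR). At 150 µg/ml it stood at 60.1 CPM, lower than at 75 µg/ml (-0.29, adjusted p = 0.00933, edgeR). SLC2A13, the proton and myo-inositol cotransporter gene, fell to 9.63 CPM at 150 µg/ml, against 15.1 CPM in DMSO (-0.65, adjusted p = 0.000705, edgeR). Of 15 genes of other monocarboxylate transport tested, 4 rose and 2 fell, 6 rose and 5 fell, and 2 rose and 1 fell. SLC16A5 rose to 29.3 CPM at 75 µg/ml and 33.6 CPM at 150 µg/ml, against 12.5 CPM in DMSO, and SLC16A13 to 20.7 CPM and 29.7 CPM, against 9.33 CPM. Both belong to the same family as SLC16A1.

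Of 7 other genes of hexose phosphorylation and its reversal, 2 rose and 3 fell at each dose against DMSO, and 1 rose and 1 fell between the doses. GCKR, which encodes the regulatory protein of the liver glucokinase, had 18 and 11 counts in DMSO, 50 and 63 with 75 µg/ml, and 198 and 170 with 150 µg/ml. Its log2 fold changes against DMSO were 1.87 (SE 0.304, adjusted p = 0.000102, edgeR) at 75 µg/ml and 3.54 (SE 0.269, adjusted p = 6.48e-09, edgeR) at 150 µg/ml. GALK1, the galactokinase gene, fell to 19.0 CPM at 150 µg/ml, against 33.0 CPM in DMSO. At the phosphofructokinase step 1 rose and 2 fell of 6, 2 rose and 4 fell, and 0 rose and 4 fell. FBP1, the gene of the gluconeogenic enzyme that reverses this step, fell to 8.82 CPM at 75 µg/ml and 3.70 CPM at 150 µg/ml, against 16.3 CPM in DMSO. PFKP, the platelet-type phosphofructokinase gene, fell to 428 CPM and 351 CPM, against 498 CPM.

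Of 5 other arrestin genes, 2 rose and 0 fell, 2 rose and 1 fell, and 1 rose and 1 fell. ARRDC3, an arrestin-domain relative of TXNIP, had 21.4 and 27.4 CPM in the DMSO libraries, 49.4 and 53.6 CPM at 75 µg/ml, and 78.0 and 66.9 CPM at 150 µg/ml. It rose by 1.08 on the log2 scale (SE 0.108, adjusted p = 4.89e-07, edgeR) and 1.57 (SE 0.105, adjusted p = 1.21e-09, edgeR) against DMSO. Of 7 genes of the MondoA and thioredoxin partners, 1 rose and 2 fell, 1 rose and 4 fell, and 1 rose and 1 fell. The one that rose was TXNRD1, the cytosolic thioredoxin reductase gene, at 1206 CPM at 75 µg/ml and 1510.0 CPM at 150 µg/ml, against 757 CPM in DMSO. TXNRD2, its mitochondrial counterpart, fell to 30.0 CPM and 28.5 CPM, against 42.2 CPM. Of 7 genes tested from the list of AMPK subunits and their upstream kinase, AMPK being the energy sensor that marks TXNIP for removal, 1 rose and 2 fell, 1 rose and 3 fell, and 2 rose and 2 fell. PRKAG2, a gamma subunit gene, fell to 70.2 CPM and 57.4 CPM at the doses, against 98.1 CPM in DMSO. PRKAB2, a beta subunit gene, rose at 150 µg/ml to 56.4 CPM, against 32.4 CPM in DMSO (1.74-fold, adjusted p = 1.66e-06, edgeR) and 39.0 CPM at 75 µg/ml (1.44-fold, adjusted p = 0.000529, edgeR).

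Downstream, 3 rose and 6 fell of 12 genes of lower glycolysis at 75 µg/ml against DMSO, 2 rose and 7 fell at 150 µg/ml against DMSO, and 0 rose and 8 fell between the doses. ENO1 and PKM, the enolase and pyruvate kinase genes, fell to 1734 and 1973 CPM at 75 µg/ml and to 1292 and 1428 CPM at 150 µg/ml, against 2484 and 2776 CPM in DMSO. ALDOA of the same list had only 1.31 CPM in DMSO, where GAPDH had 2330 CPM, and 1.21 CPM at each dose. The part of the counting options in this low level was not tested. Of 15 lactate and pyruvate enzyme genes, 3 rose and 2 fell, 2 rose and 7 fell, and 0 rose and 3 fell. LDHA, the lactate dehydrogenase subunit that works with MCT4 in lactate release, had 1803 and 1976 CPM in the DMSO libraries, 1364 and 1272 CPM at 75 µg/ml, and 760.0 and 834 CPM at 150 µg/ml. It fell by 0.52 on the log2 scale (SE 0.054, adjusted p = 8.07e-07, edgeR) and -1.25 (SE 0.0549, adjusted p = 6.02e-12, edgeR) against DMSO. SLC2A1 and LDHA thus fell at both doses against DMSO, whereas SLC2A3 rose at both, and SLC16A3 and PFKFB4 were called higher at 75 µg/ml. Of 19 hypoxia targets tested 9 rose and 2 fell, 9 rose and 5 fell, and 4 rose and 5 fell. Over all genes tested the shares were 19.2% and 19.4%, 25.8% and 25.7%, and 9.51% and 12.5%. Genes of glycolysis were kept in their own lists, so these counts depend on how the lists were drawn. VEGFA, the vascular growth factor gene, rose to 239 CPM at 75 µg/ml and 310.5 CPM at 150 µg/ml, against 63.2 CPM in DMSO. LOX rose to 154 CPM at 75 µg/ml, against 100 CPM in DMSO. BHLHE40 rose to 142 CPM at 150 µg/ml, against 54.7 CPM in DMSO, and NDRG1 stood at 206 CPM there, against 149 CPM at 75 µg/ml. ADM and PLOD2 of the same list, named after their values were seen, went the other way. ADM stood at 42.4 CPM at 75 µg/ml and 44.0 CPM at 150 µg/ml, against 90.6 CPM in DMSO. PLOD2 stood at 169 CPM and 140 CPM, against 257 CPM.

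Under total-count scaling the split of several lists differed. That of all 15589 genes tested differed too, with 4501 higher and 1816 lower at 75 µg/ml against DMSO. It was 6031 and 2542 at 150 µg/ml against DMSO, and 2206 and 1345 between the doses. In lower glycolysis 4 rose and 3 fell at 75 µg/ml against DMSO, and 4 rose and 7 fell at 150 µg/ml against DMSO, with medians of -0.03 and -0.20 in place of -0.15 and -0.39. In the lactate and pyruvate enzymes 5 rose and 2 fell at each dose, and the medians turned to 0.04 and 0.07 in place of -0.08 and -0.12. In the MondoA and thioredoxin partners 2 rose and 1 fell, then 1 rose and 1 fell, and the medians turned to 0.10 and 0.04 in place of -0.02 and -0.15. At the phosphofructokinase step 2 rose and 1 fell, then 2 rose and 3 fell, and the median at 75 µg/ml turned to 0.09 in place of -0.04. In the other hexose kinases and phosphatases 2 rose and 2 fell, then 3 rose and 3 fell, with a median of 0.00 in place of -0.19 at 150 µg/ml. In the AMPK list 3 rose and 3 fell at 150 µg/ml, where the median turned to 0.14 in place of -0.04. Among the other glucose transporters 2 rose and 1 fell at 150 µg/ml, among the other monocarboxylate transport genes 5 rose and 1 fell, then 7 rose and 3 fell, and among the other arrestins 3 rose and 0 fell at each dose. The hypoxia targets had 11 rises and 2 falls, then 11 and 4. For these last 4 lists no median against DMSO changed sign. Between the doses the split moved for the phosphofructokinase step, to 2 rises and 4 falls, for the hypoxia targets, to 6 and 3, for the AMPK list, to 2 and 1, for the MondoA and thioredoxin partners, to 1 and 0, for the lactate and pyruvate enzymes, to 0 and 1, and for lower glycolysis, to 0 and 7.

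**Figure D5:**
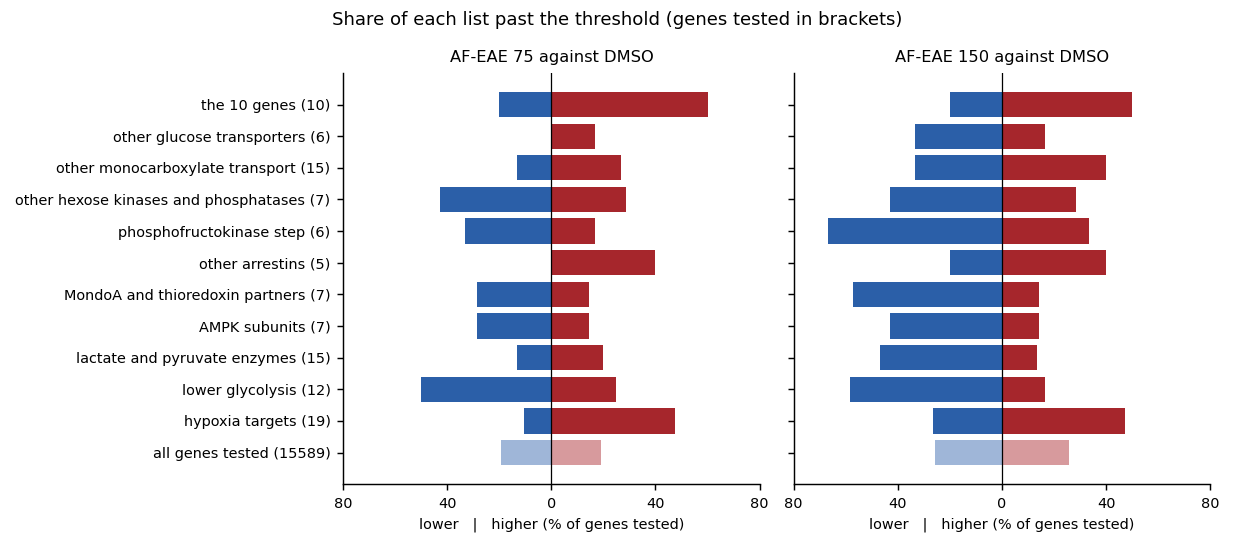
Share (%) of the tested genes of each list called higher (red, to the right) and lower (blue, to the left) at 75 µg/ml against DMSO and at 150 µg/ml against DMSO, with the number of genes tested in brackets and all genes tested in the lowest row in paler colours. Lower glycolysis had 6 and 7 of its 12 genes called lower in the 2 comparisons (4 higher and 3 lower at 75 µg/ml under total counts). The hypoxia targets had 9 of 19 called higher in each, and 2 and 5 called lower.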

How the data were processed

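RNA was measured in 6 libraries of MDA-MB-231 cells, 2 per group. The authors deposited 1 table per library with raw counts of reads in each gene. The submitters' processing notes name HISAT2 2.2.1, HTSeq 2.0.2 and the build hg38. Counting options, strand use and annotation release (not given in the sources used here) leave reads of overlapping or near-identical genes uncertain. Rows that name no gene were left out: reads outside genes made up 6.32% to 7.98% and reads assigned to no single gene 10.95% to 11.48% of counted reads. Replicates were not copies, with 2.70 to 3.43 as the chi-square divided by its degrees of freedom and r of 0.990 to 0.991 over log2 CPM across genes.

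Tests used edgeR 4.0.16 (R 4.3.3, TMM, default filter by group, quasi-likelihood F-test, group means over all 6 libraries, Benjamini-Hochberg over 15589 genes, threshold 0.05). The filter removed 45062 rows. The biological coefficient of variation was 5.08%, with 3 residual and 13.8 prior degrees of freedom. SEs come from the F statistic and intervals are 95%. They cover the spread between these libraries. Relative to all counts in genes, before the filter and TMM scaling, 3 counts correspond to 0.175 to 0.192 CPM. Symbols were on 60437 rows with 99.94% of counts. Lengths and coordinates are those of GENCODE 29 on GRCh38, matched by identifier without the version for 58361 rows. A length is that of all annotated exons of a gene merged. Upstream sequences are RefSeq's.

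The rule for named genes gave the 10 genes, then genes of the lists, then the 3 nearest profiles to TXNIP and HKDC1. From a list it took up to 2 genes per comparison with the smallest p. These were among called genes of 5 CPM or more without overlap between groups. Some list genes that met the rule are not named in the text. The 10 genes and the lists were chosen with earlier results of these data known. Genes outside that rule were named after their values were seen. Alternatives were DESeq2 size factors, total counts, no filter, a filter of 5 CPM in 2 libraries, DESeq2 1.42.0, limma-voom (limma 3.58.1), only the 2 groups compared, a replicate block, an adjusted p of 0.01, an absolute log2 fold change of 1, each library left out, and unshared exonic length.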

Additional observations from a re-analysis of the deposited data

Results flagged for a closer look

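TXNIP stands here because it was called in opposite directions at the 2 doses against DMSO and its difference between the doses was also called. The test of that difference was thus a condition of the choice and adds no further support. At 75 µg/ml it was below DMSO (log2 fold change -0.43, adjusted p = 0.000602) and at 150 µg/ml above it (0.21, adjusted p = 0.0361) (edgeR's quasi-likelihood F-test, Benjamini-Hochberg adjusted). The test of the difference between the doses gave 0.64 on the log2 scale (SE 0.0831, adjusted p = 2.97e-05, edgeR). Both libraries at 75 µg/ml were below both DMSO libraries, and both at 150 µg/ml were above them, with replicate 1 at 150 µg/ml at 100.3 CPM and replicate 2 at 81.5 CPM. The position above DMSO at 150 µg/ml was uncertain: it was 0.05 (adjusted p = 0.62, edgeR) without replicate 1 at 150 µg/ml, and it was also not called without either DMSO library (adjusted p = 0.0648 and 0.104), with DESeq2 size factors (0.0536) or with DESeq2 (0.104). It was larger under total counts, at 0.40 (adjusted p = 0.000448, edgeR), and without replicate 2 at 150 µg/ml, at 0.35. The difference between the doses was called with each library left out, at 0.49 to 0.79 on the log2 scale.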

How the results depend on the processing

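Of 417 values of the 10 genes under alternatives, 388 kept their direction and their side of the threshold, and 9 of the 30 results (10 genes in 3 comparisons) changed at least once. HKDC1, SLC2A1 and SLC2A3 kept their calls and directions under every scaling, filter, tool and design run and with each library left out. Direction turned in 4 uncalled values: ARRDC4 at 75 µg/ml against DMSO to 0.0072 under total counts and to 0.2259 without replicate 2 at 75 µg/ml (range with 1 library left out -0.5788 to 0.2259), PFKFB3 at 75 µg/ml against DMSO to 0.0715 under total counts, and HK1 at 150 µg/ml against 75 µg/ml to 0.0119 under total counts. HK1 at 150 µg/ml against DMSO also passed under the filter of 5 CPM in 2 libraries (0.12, adjusted p = 0.0195), which ARRDC4 does not pass. With a change of at least 1 required on the log2 scale, 2, 3 and 1 of the 10 genes were called at 75 µg/ml against DMSO, 150 µg/ml against DMSO and 150 µg/ml against 75 µg/ml, and 936, 1827 and 226 of all genes. At an adjusted p of 0.01, 1883 genes were called between the doses, in place of 3433. Leaving out 1 library at a time gave 1507 to 3714 calls there, with 1507 without replicate 1 at 150 µg/ml and 1990 without replicate 1 at 75 µg/ml; where this leaves a group with 1 library, that library is assumed to vary like the others. For 150 µg/ml against DMSO, 5 to 9 of the 10 genes were called over the alternatives that keep the threshold on adjusted p alone. In the main fit 51.5% of all genes tested were called there. DESeq2 was among the settings with 5, beside 6733 of all 15589 genes, and total counts gave 9, beside 8573. Beyond the smaller number of libraries, the stricter thresholds and the scaling themselves, the cause of these changes was not tested.

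Deviations of same-numbered libraries from their group means correlated at 0.059, 0.0412 and 0.00373 over genes. Such low values over all genes do not show whether the libraries were prepared in pairs. With the replicate number as a block, 8, 7 and 7 of the 10 genes were called, as without it. Of all genes, 6292, 8194 and 3776 were called with the block, against 6015, 8022 and 3433 without it. Depth limits ARRDC4, with 14 to 34 counts per library, and SLC16A1 in DMSO, with 5 and 18 counts.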

Other observations

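The form of CACGNG repeated after 5 bases, which the TXNIP window holds, also stood in windows of 19 other genes, of which 18 had a row in the files and 13 were tested. At 75 µg/ml against DMSO 2 of these rose and 1 fell, with a median log2 fold change of 0.05, where 19.2% of all genes tested rose and 19.4% fell. At 150 µg/ml against DMSO 6 rose and 3 fell, with a median of 0.20, where 25.8% of all genes rose and 25.7% fell. At 150 µg/ml against 75 µg/ml 3 rose and 3 fell, with a median of 0.08, where 9.51% of all genes rose and 12.5% fell. Nothing particular to these 13 genes is read from so few calls. GFPT1, the gene of the enzyme that directs fructose phosphate into hexosamine synthesis, is one of them and was picked once the values were known. It rose by 0.50 on the log2 scale at 75 µg/ml (SE 0.0567, adjusted p = 2.05e-06, edgeR, Benjamini-Hochberg) and by 1.25 at 150 µg/ml against DMSO (SE 0.0562, adjusted p = 8.21e-12, edgeR). Unlike TXNIP, it did not fall at 75 µg/ml.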
